A study of Rattus norvegicus with 96 samples.

Results

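The ribosomal protein genes that the study's gene tables name were followed through the transcriptomes of nicotine (NIC) behavioral sensitization (SST). Members were the genes of the SST count table whose symbol in those tables begins with Rpl or Rps followed by a number, p or a, without the Rps6k kinases, or with Mrpl or Mrps. This gave 66 of the 17637 genes, 34 for the cytosolic and 32 for the mitochondrial ribosome. The tables name 7964 genes, and 27 cytosolic and 26 mitochondrial members stand on an SST sheet, where they were selected on the study's own p-value for NIC against saline (SAL) in these libraries. Other ribosomal protein genes carry only an identifier and were not used here. A member on the sheet of a comparison is therefore described there without a test. A count is read only for members that some other table names, set against all genes that some other table names. All 66 members were high enough to be tested, among 16879 genes.

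The rats were F1 progeny of the inbred Fischer-344 and Brown Norway strains, from the initial and the reciprocal cross, 16 males in box 1 and 16 females in box 3. In each sex 8 rats were given NIC (0.4 mg/kg, base) on 4 consecutive days and 8 were given SAL, and the labels put the tissue harvest on day 17. RNA of the ventral tegmental area (VTA), nucleus accumbens (NAc) core and NAc shell was sequenced as bulk tissue, and the labels give no age. Each group held 8 libraries, apart from the SAL group of male VTA and the NIC group of female NAc core with 7, which gave 94 libraries in 12 groups. No VTA library of male SAL 3 was analysed here. The NAc core library of female NIC 1 and run R1 of male VTA SAL 5, whose run R2 was used, entered only the fits with all mapped libraries. The 6 comparisons of NIC with SAL, for each sex and region, asked how the transcriptome differed days after the last dose.

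Cytosolic ribosomes are built from ribosomal RNA and a small- and a large-subunit set of proteins, which are usually expressed together. Their mRNAs carry a terminal oligopyrimidine tract (TOP), an unbroken run of C and T that begins at the transcription start, through which mTORC1 signaling and the RNA-binding protein LARP1 control their translation and stability. Mitochondrial ribosomes have their own nuclear-coded proteins, which are imported and assembled inside the mitochondrion with its own ribosomal RNA, and they make the respiratory chain subunits coded by mitochondrial DNA. In neurons, translation at synapses and the supply of ATP both draw on these machines.

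The start sites of the members that recur in the results below are shown first, because long pyrimidine runs were more frequent at cytosolic than at mitochondrial members, with exceptions in both sets. Each window of 30 bases ends 15 bases into the transcript, runs 5′ to 3′ on the gene's strand and has its longest run of C and T in capitals. The first group holds cytosolic members that recur in the VTA comparisons or lead the regional ones.
Rps14 (chr18:56498245-56498274, plus strand): cccttccgTCTCTCTCTTTCCggtggagga
Rpl31 (chr9:49143096-49143125, plus strand): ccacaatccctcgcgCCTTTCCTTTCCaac
Rplp1 (chr8:71290858-71290887, minus strand): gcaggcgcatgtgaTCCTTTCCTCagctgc
Rplp2 (chr1:205975906-205975935, plus strand): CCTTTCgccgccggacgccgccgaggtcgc
Rps28 (chr7:15311319-15311348, minus strand): gcatcccctgctcacgtgaCTCCTCTCCgc
Rps21 (chr3:187724023-187724052, plus strand): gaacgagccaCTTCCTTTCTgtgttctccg
Rps19 (chr1:89608673-89608702, plus strand): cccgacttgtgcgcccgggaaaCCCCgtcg
The next pair sets Rps27 beside its like-named relative Rps27l, and Rpl7l1 is the relative of Rpl7 that ran against the other cytosolic members.
Rps27 (chr2:177964592-177964621, minus strand): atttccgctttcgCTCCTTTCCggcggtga
Rps27l (chr8:76443643-76443672, plus strand): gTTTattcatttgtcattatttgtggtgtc
Rpl7l1 (chr9:21695703-21695732, plus strand): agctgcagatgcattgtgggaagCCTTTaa
The last group holds the mitochondrial members described with NIC in VTA and in the male NAc for which a window was found, and Mrpl14 has a pair of windows.
Mrpl51 (chr4:159677973-159678002, plus strand): gcgtcgcgcccgcagagtccgcaaCTCCga
Mrps10 (chr9:21122439-21122468, minus strand): ggcacggctgtgaTCCCggaagcgatcgtg
Mrps15 (chr5:143606126-143606155, plus strand): tcgagCCTgaaccatcatggctgcgcccgt
Mrpl37 (chr5:127074953-127074982, minus strand): ccagcaggCCCTgcccgggcaaagatggcg
Mrps5 (chr3:135274318-135274347, plus strand): gagcctgactcagTTCCCTCTgtggtccac
Mrpl47 (chr2:117447347-117447376, minus strand): gaCCTagtggacaccggcacagtgtgtctg
Mrpl52 (chr15:31852921-31852950, plus strand): accggagccacgcccacttccggTTTCTTT
Mrpl2 (chr9:21834593-21834622, minus strand): ctgggtaaaggtaaaagcgagTTCTgtacg
Mrpl14 (chr9:22805850-22805879, minus strand): aggagtgTCatagaagaaatactgaagacc
Mrpl14 (chr9:22811219-22811248, minus strand): ggagcaCCactggcgcgcaggcgcagcgtg

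These windows come from RefSeq on build GRCr8, while the counts were made on Rnor 6, so positions are those of GRCr8 only. A start window was found by symbol and chromosome for 28 of the 34 cytosolic and 22 of the 32 mitochondrial members (23 windows). A run of at least 8 C or T stood in 67.9% of the cytosolic windows, in 8.7% of the mitochondrial windows and in 11.4% of the 33469 windows of all genes, and the median longest run was 9, 4 and 4 bases. Cytosolic members with short runs were Rps12 (3 bases), Rps16 and Rps19 (4), Rpl6 (5), Rps6 and Rplp2 (6) and Rpl12 (7), beside the relatives Rps27l and Rpl7l1, while Mrps5 (8) and Mrps9 (11) were the mitochondrial members with long ones. In the full windows of 300 bases, CCGGAA, the core bound by ETS factors, was found on either strand in 64.3% of cytosolic, 39.1% of mitochondrial and 15% of all windows. AAGATGGC, the YY1 core with its ATG, was on either strand most frequent in the mitochondrial set, with 3.57% of cytosolic, 30.4% of mitochondrial and 3.17% of all windows. GGGCGG (either strand) stood in 46.4%, 43.5% and 33.1%, and TATAAA (forward strand) in 10.7%, 8.7% and 8.8%. The forward motifs CTTTCC and CTTTTC, which overlap the pyrimidine runs, stood in 35.7% and 28.6% of cytosolic, 30.4% and 13% of mitochondrial, and 13.4% and 11.9% of all windows. The NRF1 core (either strand) stood in 10.7%, 13% and 5.58%. These matches describe letters only.

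Library totals lay between 15868529 and 27736905 counts with a median of 19874900. Cell type markers, like the members, were counted only where the study's tables name them. They therefore share the members' selection, and the sheets of the NIC comparisons helped to choose them. The VTA label was checked against dopaminergic markers, of which 5 of 5 tested were higher in VTA than in NAc core with a median log2 difference of 8.57, and 7 of 7 striatal projection neuron markers were lower. Female VTA NIC 2 stood apart with a summed dopaminergic marker level of 67.7 CPM (counts divided by the scaled library size and put on a common scale), against 1305 or more in female VTA SAL. It also held 2593 CPM of the choroid plexus markers Ttr, Kl and Folr1, against a median of 3.66 in its group, and female VTA SAL 16 held 870 CPM and male NAc shell SAL 5 held 366 CPM, against medians of 5.71 and 4.77. Male NAc core SAL 1 and male NAc shell SAL 1 also stood apart, with striatal marker sums of 322 and 263 CPM against group medians of 2295 and 2524. Female VTA NIC 2 and these SAL 1 libraries are the libraries that stand apart in the results below. The label "prep batch" splits the treatments almost completely: male VTA SAL libraries were in batches A, B and C and male VTA NIC libraries in C, D and L, while female VTA NIC libraries were in G to J and L and female VTA SAL libraries in J to L. NIC and prep batch can therefore hardly be told apart. For the member sets, and not for the pathway lists or markers, values within a shared batch are given below wherever a batch holds both treatments. In bulk tissue, fewer cells of a type and less RNA per cell cannot be told apart either.

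The cytosolic members together supplied a smaller share of the counts in VTA than in the NAc. Over the SAL rats the share was 0.892% ± 0.0532 (SD, n = 15) in VTA, 1.13% ± 0.0947 (SD, n = 16) in NAc core and 1.139% ± 0.107 (SD, n = 16) in NAc shell. The mitochondrial members took 0.127% ± 0.00385, 0.132% ± 0.00377 and 0.135% ± 0.00632 in the same order. The counting error of a single library was smaller, as in male VTA SAL 4 with 0.959% (95% exact Clopper-Pearson interval 0.956% to 0.963%), so the spread between rats limits the precision.

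**Figure D1:**
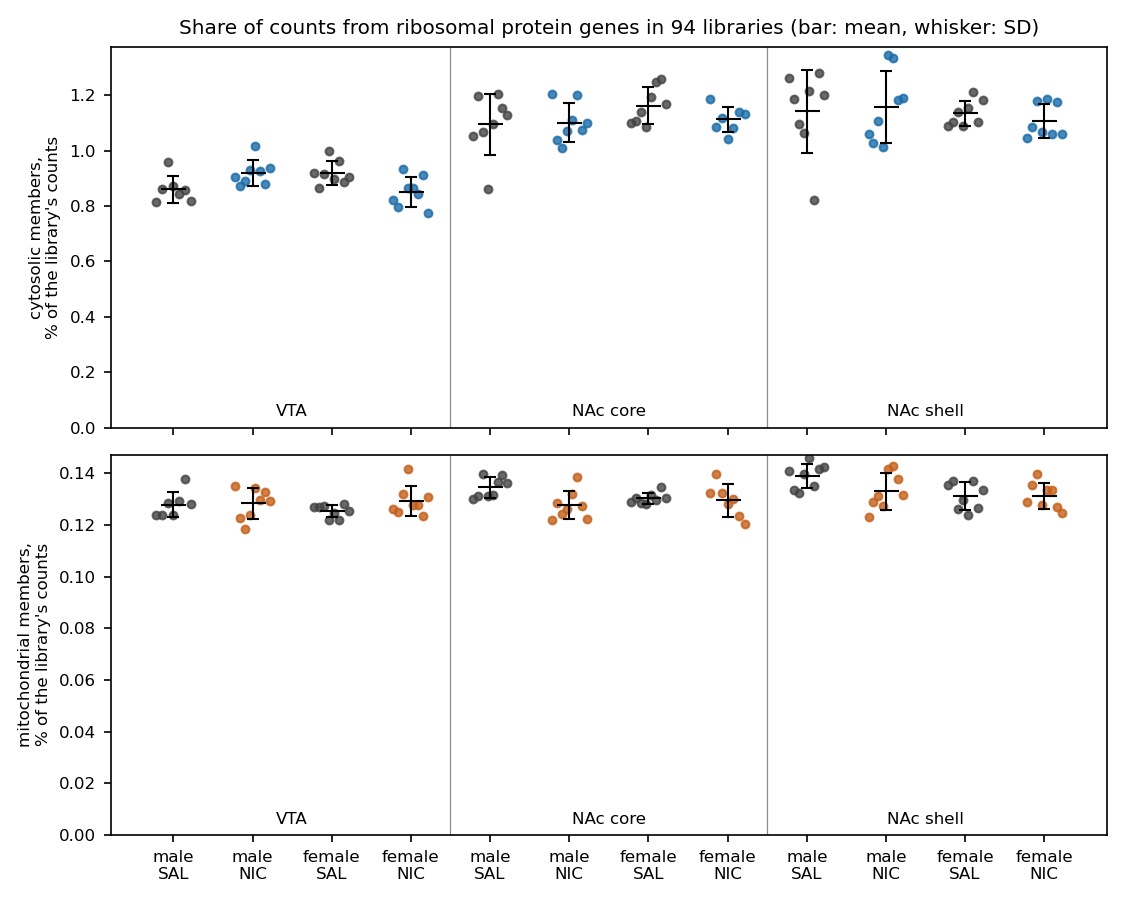
Share of a library's counts (percent, vertical axes from 0) from the 34 cytosolic (top) and 32 mitochondrial members (bottom) in each of the 94 libraries, by sex, region and treatment, with the group mean as a bar and the SD as a whisker. In VTA the male NIC mean of 0.920% lies above the male SAL mean of 0.861%, and the female NIC mean of 0.852% lies below the female SAL mean of 0.920%.

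Between regions, 29 of the 34 cytosolic members differed between VTA and NAc core of the SAL rats at an adjusted p under 0.05 (edgeR, both sexes averaged), 27 lower and 2 higher in VTA. Of all genes tested 75.9% differed at that threshold, 37.8% lower and 38.1% higher in VTA. Their median log2 difference was -0.37, with a range from -0.87 to 0.55, against 0.00 over all genes. Against NAc shell, where 74.4% of all genes differed, 37.9% lower and 36.5% higher in VTA, 27 cytosolic members were lower and 1 was higher, with a median of -0.34. NAc core and shell differed in 1 cytosolic member, against 21.3% of all genes. Without the libraries that stand apart, 25 members were lower and 2 higher in VTA than in core, 25 lower and 1 higher than in shell, and 2 differed between core and shell.

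Rplp1 and Rps19 stood lowest in VTA. Rplp1, an acidic stalk protein of the large subunit that recruits elongation factors, had 739 ± 63.6 CPM in VTA (SD, n = 15), 1341 ± 186 in NAc core and 1240 ± 170 in NAc shell (SD, n = 16 each). VTA was lower than NAc core in 15 of 15 rats, with a log2 difference of -0.87 (SE 0.065, adjusted p = 2.12e-16), and lower than NAc shell by the same count of rats, with -0.76 (adjusted p = 1.68e-14). Rps19, the small-subunit protein mutated in Diamond-Blackfan anemia, was lower in VTA than in core in 14 of 15 rats (log2 difference -0.74, adjusted p = 1.95e-12).

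Rpl31, a large-subunit protein near the exit of the nascent chain, was lower in VTA than in core (-0.67, adjusted p = 8.53e-17) and was the 1 cytosolic member that differed between core and shell, where it was higher in core in 13 of 16 rats (0.14, adjusted p = 0.024). Among the small-subunit proteins Rps21 and Rps7 the log2 differences of VTA from core were -0.62 and -0.59. Not all members shared the pattern. Rps6, the protein phosphorylated by S6 kinases, differed between VTA and core by 0.01 (SE 0.061) and from shell by -0.02, and Rpl10, a protein that joins the large subunit late in its maturation, by 0.02 (SE 0.035) and -0.03.

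The 2 cytosolic members higher in VTA than in core were the like-named relatives Rpl7l1 and Rps27l. Short pyrimidine runs did not set them apart. Rps19 (4 bases) and Rplp2 (6 bases) had short runs too and were lower in VTA than in core in 14 and 15 of 15 rats. Rpl7l1, a relative of Rpl7 linked to ribosome assembly, had 21.9 ± 2.41 CPM in VTA (SD, n = 15) and 14.9 ± 2.01 in core (SD, n = 16), and it was higher in VTA in all 15 rats (log2 difference 0.55, adjusted p = 1.25e-07). Rps27l, a p53-responsive relative of Rps27, was higher by 0.22 (adjusted p = 0.0035) against core, and its difference from shell of 0.13 did not pass (adjusted p = 0.0946).

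The mitochondrial members were split between the directions. VTA differed from core in 23 of 32 (71.9%, against 75.9% of all genes), 16 lower and 7 higher, with a median of -0.10. It differed from shell in 21 (65.6%, against 74.4%), 16 lower and 5 higher, again with a median of -0.10. Counted in either direction, these shares do not exceed those of all genes. By direction, 16 of 32 members were lower in VTA than in core, against 37.8% of all genes, and 7 were higher, against 38.1%. Against shell, 16 members were lower and 5 higher in VTA, where 37.9% of all genes were lower and 36.5% higher. Mrps24, a small-subunit protein of the mitochondrial ribosome, had 31.7 CPM in VTA, 50.1 in core and 44.7 in shell on average, and was lower in VTA than in core in 15 of 15 rats (-0.66, adjusted p = 1.85e-18). Mrps34 and Mrps9, of the same subunit, were lower by -0.49 and -0.44 against core and by -0.43 and -0.39 against shell.

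Members of both subunits were higher in VTA. Mrpl47, of the large subunit, was higher in VTA by 0.34 against core and 0.31 against shell (adjusted p = 1.75e-06 and 8.8e-06), Mrpl51 by 0.28 and 0.23 in all 15 rats, and Mrpl17, the mitochondrial member with the most counts, by 0.24 in both and again in all 15. Mrpl50 was higher than in shell by 0.23, and Mrps10, of the small subunit, higher than in core by 0.28. Core and shell differed in 4 mitochondrial members (12.5%, against 21.3% of all genes), with Mrpl42 (0.21) and Mrps24 (0.16) higher and Mrpl22 (-0.14) and Mrps22 (-0.11) lower in core. Mrpl22 and Mrps22 no longer passed without the libraries that stand apart. The count of mitochondrial members stayed within 1.5 times of 4 in that fit, so another member passed there.

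Other cell types moved with these regional differences. Oligodendrocyte markers were higher in VTA than in core for 6 of 6 tested (median 1.72), as were 4 of 4 meningeal fibroblast markers (1.65) and 3 of 4 astrocyte markers, and 3 of 3 general neuron markers were lower (-0.70). Their part in the members' differences was not tested.

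**Figure D2:**
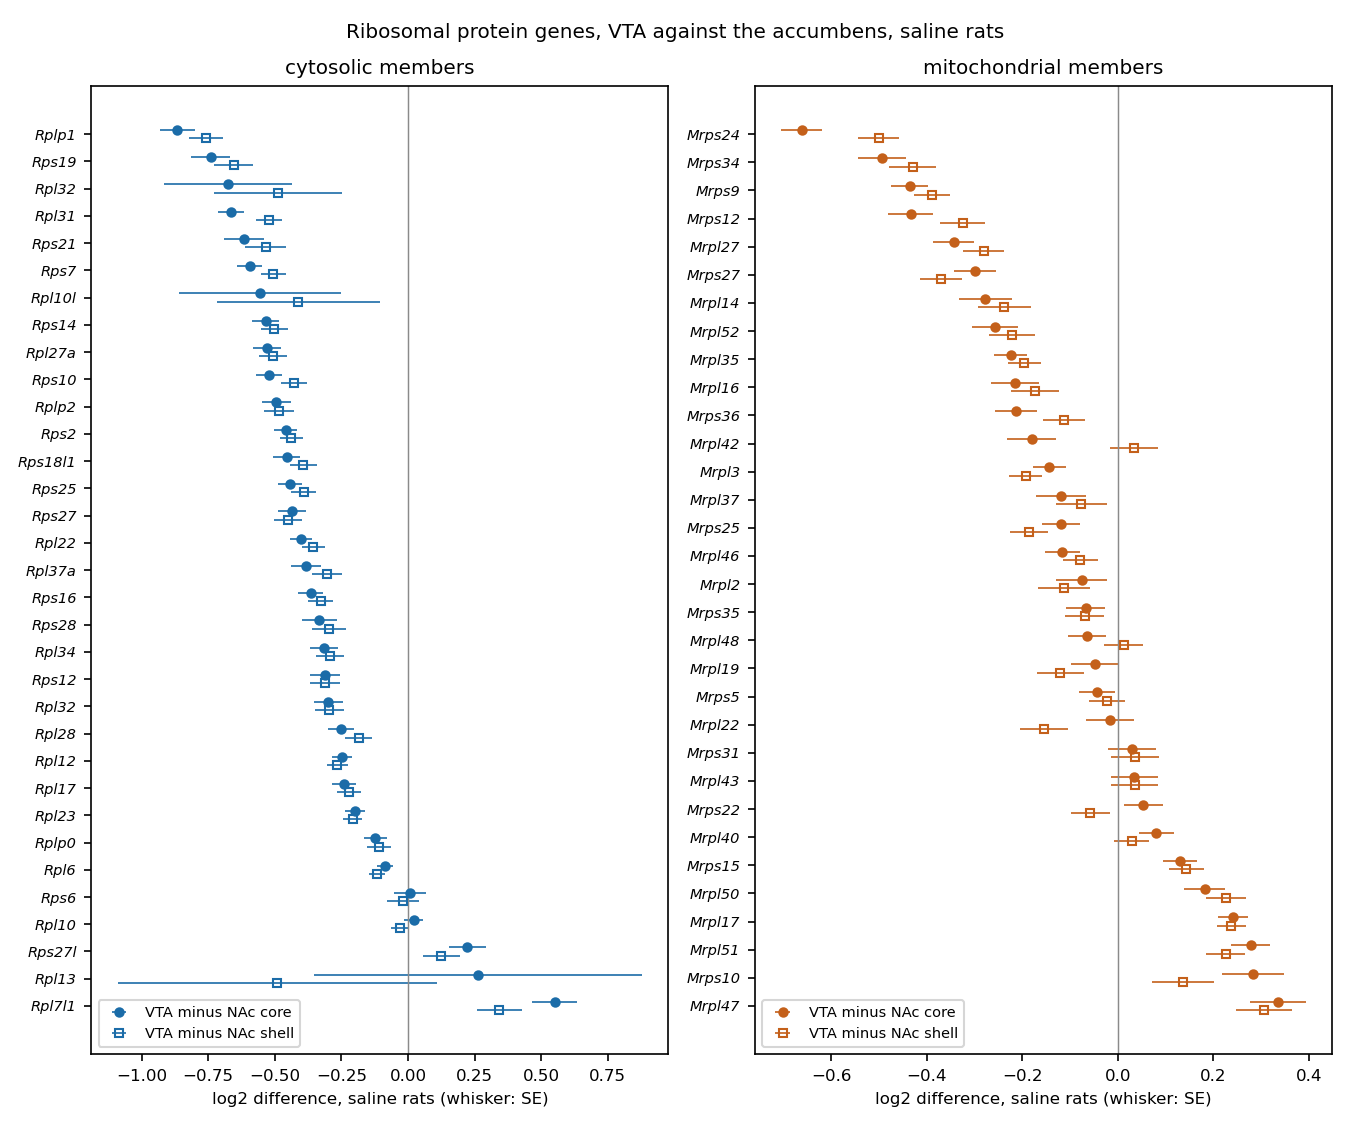
Log2 difference of VTA from NAc core (filled circles) and from NAc shell (open squares) in the SAL rats for the cytosolic (left) and mitochondrial (right) members, 1 cytosolic member not shown, with the SE as a whisker and negative values lower in VTA. Cytosolic members lie almost all to the left of 0, from Rplp1 at -0.87 to Rpl7l1 at 0.55 against core, while mitochondrial members lie on both sides.

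In male VTA the cytosolic ribosomal protein mRNAs leaned higher with NIC. Of the 34 members 31 had a positive log2 difference, with a median of 0.08 against 0.00 for all genes, of which 50.8% were positive. This includes the 10 members on the sheet of this comparison, all positive by that choice, and among the 27 named by some other sheet or list 24 were positive, with a median of 0.07. No gene passed an adjusted p under 0.05 by edgeR in any of the 6 comparisons, so calls on NIC are at an unadjusted p under 0.05, the threshold of the study. In male VTA 5.62% of all genes were called, 2.35% higher, and 10 cytosolic members, all higher, a count that the sheet of this comparison helped to set. Among the 27 named elsewhere, 5 were called, all higher. Of all genes named in that way 5.32% were called, 2.26% higher. The share of counts was 0.861% ± 0.0486 (SD, n = 7) in SAL and 0.920% ± 0.0464 (SD, n = 8) in NIC, with overlapping ranges of 0.815% to 0.959% and 0.872% to 1.02%.

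Rps14, a small-subunit protein, had 271, 285 and 317 CPM (lowest, median and highest) in male VTA SAL and 288, 325 and 347 in NIC. The groups overlapped, with the NIC median above the highest SAL library, and the log2 difference was 0.15 (SE 0.050). Rps27, another small-subunit protein, had 192, 206 and 230 CPM in SAL and 207, 224 and 253 in NIC, a difference of 0.13 (SE 0.050). Both are on this comparison's sheet, and so are Rplp1 (0.11), Rpl31 (0.13), Rpl10 (0.12), Rpl23 (0.09), Rps18l1 (0.10), Rpl32 of chromosome 4 (0.12), Rpl22 (0.09) and Rps2 (0.10).

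Members just outside that sheet had differences as large as those on it, which lay between 0.09 and 0.15. Rps25, a small-subunit protein used in internal initiation, is named by the sheet of female VTA and had 123, 136 and 151 CPM in male SAL and 136, 144 and 176 in NIC. The lowest NIC library was level with the SAL median, and the difference was 0.14 (SE 0.059, p = 0.0304, adjusted p = 0.866, exact permutation p = 0.0333). Rplp2, the partner of Rplp1 in the stalk, went from 96.7, 106 and 122 CPM to 104, 120 and 139 (0.17, SE 0.074, p = 0.0353, adjusted p = 0.866), while its exact permutation p was 0.055.

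The male count depended on single libraries and was lower in some other fits. It was 1 without NIC 13, SAL 1 or SAL 8, 2 without NIC 9 or SAL 6, 3 without SAL 2 and 9 without SAL 4, and the median fell to 0.05 without SAL 8. With all 12 groups in one fit it was 2, and with prep batch as a covariate 0, where the median was 0.06 and 28 of 34 members were positive. Within batch C, with 2 libraries per treatment, the mean log2 level of the cytosolic members was 0.04 higher in NIC, and these 4 libraries alone inform the fit with prep batch. Among other cell types, oligodendrocyte markers were lower in male VTA NIC for 3 of 6 (median -0.23), with a summed level of 33133 to 46670 CPM in SAL and 29032 to 41894 in NIC, and 2 of 3 cholinergic markers were lower. Of 5 dopaminergic markers 0 were called, with a median of 0.21, and their summed level was 1228 to 2523 CPM in SAL (median 1723) and 1511 to 2670 in NIC (median 2308). Their part was not tested.

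The female VTA showed the opposite direction. There 32 of 34 cytosolic members were lower in NIC, with a median log2 difference of -0.11 against 0.02 for all genes, of which 54.9% were positive. Of these members 17 were called, all lower, where 9.24% of all genes were called, 5.2% lower. The sheet of this comparison chose 16 of the 34. Among the 26 named by some other sheet or list 24 were lower, with a median of -0.10, and 9 were called, all lower. Of all genes named in that way 10.7% were called, 5.94% lower. The share of counts was 0.920% ± 0.0425 in SAL and 0.852% ± 0.0541 in NIC (SD, n = 8 each), and it overlapped between 0.866% and 0.935%.

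The members on the female VTA sheet came from both subunits. Rps28, a small-subunit protein at the exit of the mRNA, had 102, 109 and 119 CPM in SAL and 89.1, 97.5 and 107 in NIC, so the NIC median lay below every SAL library, and the difference was -0.17 (SE 0.047). Rplp0, the base of the stalk, went from 544, 598 and 647 CPM to 481, 536 and 595 (-0.16), and Rplp1 and Rplp2, which sit on it, changed by -0.15 and -0.19. Rps6 went from 364, 422 and 441 CPM to 328, 385 and 410 (-0.14), while its male difference was 0.07 (SE 0.117).

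Rps14 is on the male but not on the female VTA sheet and so could be tested in females. It had 302, 327 and 356 CPM in SAL and 271, 285 and 359 in NIC. The NIC median lay below every SAL library while the highest NIC library lay above all of them, and the difference was -0.14 (SE 0.059, p = 0.0345, adjusted p = 0.519, exact permutation p = 0.0343). It was no longer called without any 1 of 7 of the 16 libraries (NIC 1, NIC 2, NIC 5, NIC 8, SAL 12, SAL 14 or SAL 16), and with prep batch as a covariate the difference was -0.01. Rps27, also on the male sheet alone, had a female difference of -0.13 (p = 0.0515, exact permutation p = 0.0522), and Rpl10 one of -0.06 (p = 0.33).

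The female count was also lower in some other fits. It was 10 with DESeq2's test, with its size factors, with no count filter, and with a count of 10 in every library. With prep batch as a covariate 2 members were called, where 1.68% of genes named elsewhere were, with a median of -0.04 and 29 of 34 negative, and with all 12 groups in one fit 3. Within batch J, with 2 libraries per treatment, NIC was lower by -0.11 in mean log2 level, and within batch L, with 1 NIC and 2 SAL libraries, by -0.24, and no other batch holds both treatments. Without female VTA NIC 2, the library low in dopaminergic markers, 6 members were called and the median was -0.10, and the values were the same when SAL 16, high in choroid plexus markers, was left out as well. Among other cell types, 1 of 4 astrocyte, 1 of 3 microglia, 1 of 1 endothelial and 1 of 4 meningeal markers were lower in NIC and 1 of 3 cholinergic markers higher, and 0 of 6 oligodendrocyte markers were called. Of 5 dopaminergic markers 0 were called, with a median of -0.38, and their summed level was 1305 to 2513 CPM in SAL (median 2003) and 67.7 to 2303 in NIC (median 1763). Their part was not tested.

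Side by side, 31 of the 34 cytosolic members (91.2%) were higher with NIC in male VTA and lower in female VTA, against 26.6% of all genes. These comparisons share no library, though the choice of members drew on both sheets. The test of the difference itself, the sex by treatment interaction, called 23 cytosolic members, all with the female difference below the male one, where 11% of all genes were called, 6.24% lower. Among the 18 cytosolic members named outside these VTA sheets, 15 had the female difference below the male one, with a median of -0.19, and 9 were called, all lower. Of all genes named in that way 12.3% were called, 6.93% lower. No gene passed an adjusted p under 0.05. The count stayed at 9 without the libraries that stand apart, was 8 without those high in choroid plexus markers and was 0 with prep batch as a covariate, where the median over the 34 members was -0.11. By the same interaction 3 of 3 cholinergic markers were higher and 3 of 4 meningeal markers lower, and their part was not tested.

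Rpl6 and Rps27l are on neither VTA sheet and were called by the interaction. Rpl6, a large-subunit protein, differed by 0.09 in males and -0.05 in females (interaction -0.14, SE 0.065, adjusted p = 0.442), and Rps27l by 0.16 and -0.11 (interaction -0.26, SE 0.125, adjusted p = 0.446). Rpl7l1, the relative of Rpl7, was an exception. It differed by -0.01 in males and 0.11 in females, opposite in sign to the bulk of the cytosolic members, and neither value was called.

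**Figure D3:**
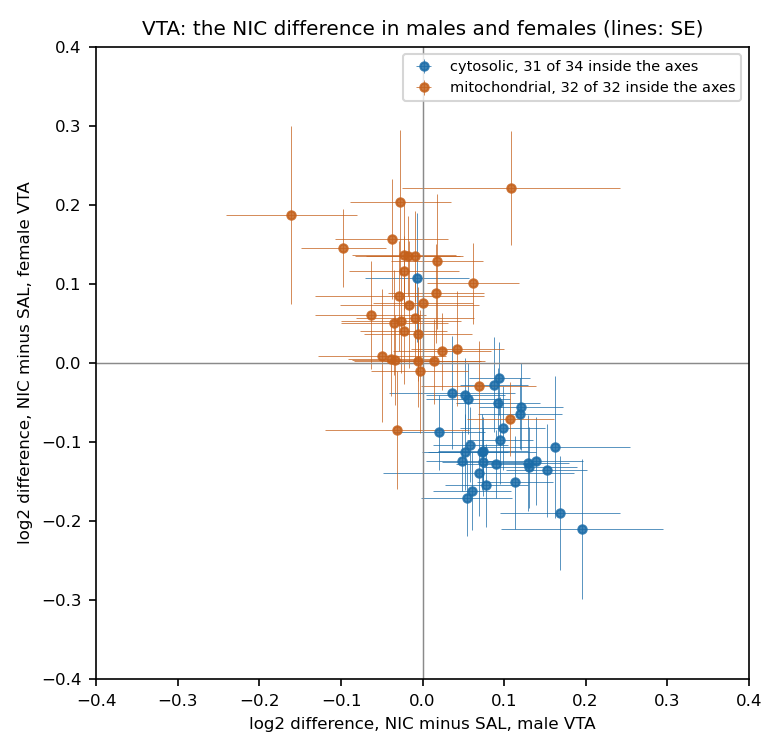
Log2 difference of NIC from SAL in male VTA (horizontal) and female VTA (vertical) for the cytosolic (blue) and mitochondrial (orange) members, with SEs as lines. The low-count Rpl10l, Rpl13 and chromosome 6 Rpl32 lie beyond the axes. The other cytosolic members, apart from Rpl7l1, gather at the lower right, and the mitochondrial members at the upper left, 20 of 32 lower in males and higher in females.

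The mitochondrial members did not follow the cytosolic ones in VTA. In male VTA 0 of 32 were called by edgeR at an unadjusted p under 0.05, with a median of -0.02, and DESeq2 called 0 of those named elsewhere. Without SAL 4 that count was 2, and without SAL 7 the median was 0.01. With prep batch as a covariate 4 were called, all lower, against 4.52% of all genes in that fit (2.16% lower), the median was -0.14 and 31 of 32 were negative, and within batch C, with 2 libraries per treatment, the mean log2 level was -0.19 lower in NIC. In female VTA, 28 of 32 had a positive difference, against 54.9% of all genes, with a median of 0.06. Of these members 6 were called, all higher, where 9.24% of all genes were called, 4.04% higher. Among the 28 named by some other sheet or list 24 were positive, with a median of 0.05, and 5 were called, all higher, against 10.7% of genes so named (4.8% higher), and with prep batch as a covariate 0. The median was 0.03 without NIC 4, the library with the high mitochondrial share. Within batch J the mean log2 level differed by 0.01, and within batch L by 0.12. The signs were lower in males and higher in females for 20 of 32 (62.5%), against 30.8% of all genes.

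Mrps10, a small-subunit protein, had 8.96, 10.7 and 11.3 CPM in female VTA SAL and 10.7, 12.3 and 13.5 in NIC. The lowest NIC library was level with the SAL median (0.22, SE 0.072). Mrps5, of the same subunit, is not on the female VTA sheet and had 30.1, 32.4 and 35.6 CPM in SAL and 34.3, 35.7 and 36.9 in NIC, with a difference of 0.12 (SE 0.044, p = 0.0172, adjusted p = 0.509, exact permutation p = 0.00404). Mrpl51, a large-subunit protein, went from 47.1, 49.9 and 51.9 CPM to 50.3, 54.2 and 64.2 (0.15), and Mrps15 changed by 0.14. In male VTA, Mrpl51 differed by -0.10 and Mrps10 and Mrps15 were not called.

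By the interaction in VTA, 3 of 28 mitochondrial members named elsewhere were called against 12.3% of genes so named, a share near the background. With prep batch as a covariate 6 were called, all higher, against 2.94% of genes so named in that fit (1.84% higher), and the median over the 32 members went from 0.08 to 0.23, with 31 positive. Mrpl51 (0.25) and Mrpl47 (0.36) had the female difference above the male one. Mrpl52, a large-subunit protein, had it below (-0.17), with 0.11 in males and -0.07 in females, the signs of the cytosolic members.

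In the NAc the cytosolic members leaned lower in females, with 28 of 34 negative in core and 24 of 34 in shell, while few were called in males. Of all genes 50.4% were positive in female core and 51.8% in female shell. Male core and male shell each had 1 called, the low-count Rpl10l, against 9.83% and 2.46% of all genes (4.06% and 1.44% lower), with medians of -0.02 and 0.01. Leaving out single libraries put the core median between -0.06 (without SAL 4) and -0.01 (without SAL 6), and the shell median between -0.05 (without SAL 6) and 0.06 (without SAL 1). Without male core SAL 4, a library with a low cytosolic share, 5 were called in core, and without male shell SAL 3 or SAL 8 none was called in shell. Within batch C the mean log2 level of the cytosolic members differed by -0.14 in male core (4 NIC and 2 SAL libraries) and -0.30 in male shell (3 and 2). In female core 5 were called, all lower, against 6.45% of all genes (3.57% lower) and, as all 34 are named elsewhere, 7.26% of genes so named (3.97% lower), with a median of -0.05. In female shell 3 were called, all lower, against 10.1% of all genes (4.88% lower) and 11.5% of genes named elsewhere (5.73% lower), with a median of -0.04. That count was 8 without NIC 5 and 6 without NIC 7. The core median was -0.03 without SAL 14 or SAL 15, and the shell median -0.03 without NIC 1 and -0.02 without SAL 14. With prep batch as a covariate the female core count was 0 and its median 0.08 (22 of 34 positive), and within batch J the mean log2 level in female core was 0.05 higher in NIC. Both values rest on the 2 NIC and 2 SAL libraries of batch J, so a batch and a small subset cannot be told apart there. In female shell the level within batch J was -0.05 lower in NIC.

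The 5 called in female core, all on its sheet, encode proteins of the small subunit, among them Rps14, Rps28, Rps19 and Rps21. Rps14 had 407, 462 and 499 CPM in SAL and 373, 391 and 455 in NIC (-0.20, SE 0.056). The NIC median lay below every SAL library, as it had in female VTA. Rps28 went from 118, 147 and 161 CPM to 93.5, 121 and 139 (-0.28), and Rps19 changed by -0.23. Rps21 went from 40.5, 46.1 and 61.1 CPM to 17.2, 41.2 and 46.6 (-0.38), where NIC 8 alone held the lowest value, and without it the difference was -0.25 and was no longer called. Beside these, the summed microglia markers of female core went from 196, 209 and 220 CPM in SAL to 214, 223 and 231 in NIC. The astrocyte markers went from 1430, 1619 and 1683 to 1531, 1706 and 1873, and the striatal projection neuron markers from 2510, 3586 and 5251 to 2283, 3211 and 4913. Their part was not tested.

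In female shell the called members were Rplp2, Rps27l and Rpl31. Rplp2 had 149, 166 and 200 CPM in SAL and 138, 151 and 163 in NIC (-0.17, SE 0.056), with the NIC median close to the lowest SAL library. Rpl31 went from 210, 231 and 261 CPM to 197, 211 and 223 (-0.12). Beside these, 7 of 7 striatal projection neuron markers were lower in female shell NIC (median -0.36), with summed levels of 2115 to 2941 CPM in SAL and 1289 to 2803 in NIC, and 2 of 6 oligodendrocyte markers were higher. Their part was not tested. Over the 6 comparisons Rps14, Rpl31 and Rplp2 were called in 3 each, higher in male VTA and lower in the female comparisons, and 9 cytosolic members were called in none. The sheets of these comparisons helped to set that recurrence. Rpl31 is on those of male VTA, female VTA and female shell, Rps14 on those of male VTA and female core, and Rplp2 on those of female VTA and female shell.

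In the male NAc the mitochondrial members leaned lower with NIC, and few of those named elsewhere passed. In male core 29 of 32 had a negative difference, with a median of -0.09, where 48.0% of all genes had a positive one. Of the 32 members 10 were called, all lower, where 9.83% of all genes were called, 4.06% lower. This comparison's sheet alone made 8 of them members. Among the 23 named by some other sheet or list 20 were negative, with a median of -0.08, and 2 were called, both lower, against 12% of genes so named (4.28% lower), a share near the background. That count was 7 without NIC 14, 4 without SAL 5 and 1 without NIC 9, NIC 11, NIC 12, SAL 3 or SAL 7. In male shell 3 of 31 named elsewhere were called, all lower, against 2.35% of genes so named (1.34% lower), with a median over the 32 members of -0.05. There the count was 5 without NIC 15 or SAL 3 and 1 without NIC 9 or SAL 5, the library high in choroid plexus markers.

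Mrpl37, a large-subunit protein, led in male core with 48.9, 57.4 and 66.5 CPM in SAL and 40.8, 48.7 and 54 in NIC. The NIC median lay just under the lowest SAL library (-0.25, SE 0.067). Mrpl14, also of the large subunit, was on both male NAc sheets, with 18.2, 22.6 and 28.2 CPM in core SAL and 17.4, 18.6 and 22.9 in core NIC (-0.25), and 17.9, 22.4 and 24.9 in shell SAL and 16.2, 19.1 and 21.4 in shell NIC (-0.22). Mrps34 went from 51.6, 64.4 and 71.1 CPM to 48.2, 54.2 and 60.1 in core (-0.21), and Mrpl2, the relative of bacterial L2, changed by -0.19 in core and -0.15 in shell.

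Values from the shared batch and from other cell types stood beside these. Within batch C the mean log2 level of the mitochondrial members was -0.18 lower in male core NIC (4 NIC and 2 SAL libraries) and -0.13 lower in male shell NIC (3 and 2). In male core 3 of 4 meningeal markers were higher with NIC (median 0.45), 1 of 6 oligodendrocyte markers was higher and 1 of 1 cortical marker lower. Their part was not tested. In the female NAc the mitochondrial members had medians of 0.02 in core, with 0 called by edgeR (2 without SAL 9, and 0 by DESeq2 among those named elsewhere), and 0.00 in shell, where Mrps5 alone was called (0.14, from 30.5, 32.2 and 34.6 CPM to 31.9, 35.9 and 37.2). The shell count was 3 without NIC 7. Both medians lay near 0 and took either sign, from -0.01 (without NIC 3) to 0.04 in core and from -0.01 (without NIC 3) to 0.02 in shell. With prep batch as a covariate they were -0.06 in core, with 3 called against 4.59% of all genes in that fit, and -0.14 in shell, with 28 of 32 negative. Within batch J the mean log2 level was -0.04 lower in core NIC and -0.14 lower in shell NIC.

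The interaction in NAc core called 2 cytosolic members, Rps28 (-0.33) and Rps14 (-0.17), and 5 mitochondrial ones, but 0 of the 22 mitochondrial members named outside these sheets, where 8.89% of all genes and 10.9% of genes so named were called. In shell it called Rplp2 (-0.29) and the mitochondrial members Mrps5 (0.19), Mrpl40 (0.20) and Mrpl2 (0.24), against 8.07% of all genes and 9.1% of genes named elsewhere. With prep batch as a covariate Rps14 in core (0.022) and Rplp2 in shell (0.285) took the other sign, and so did the cytosolic set. Its median went from -0.05 to 0.17 in core, with 30 of 34 positive and 4 called, all higher, against 7.45% of all genes in that fit (3.15% higher), and from -0.05 to 0.19 in shell, with 32 of 34 positive. The mitochondrial median in shell went from 0.07 to 0.0017.

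**Figure D4:**
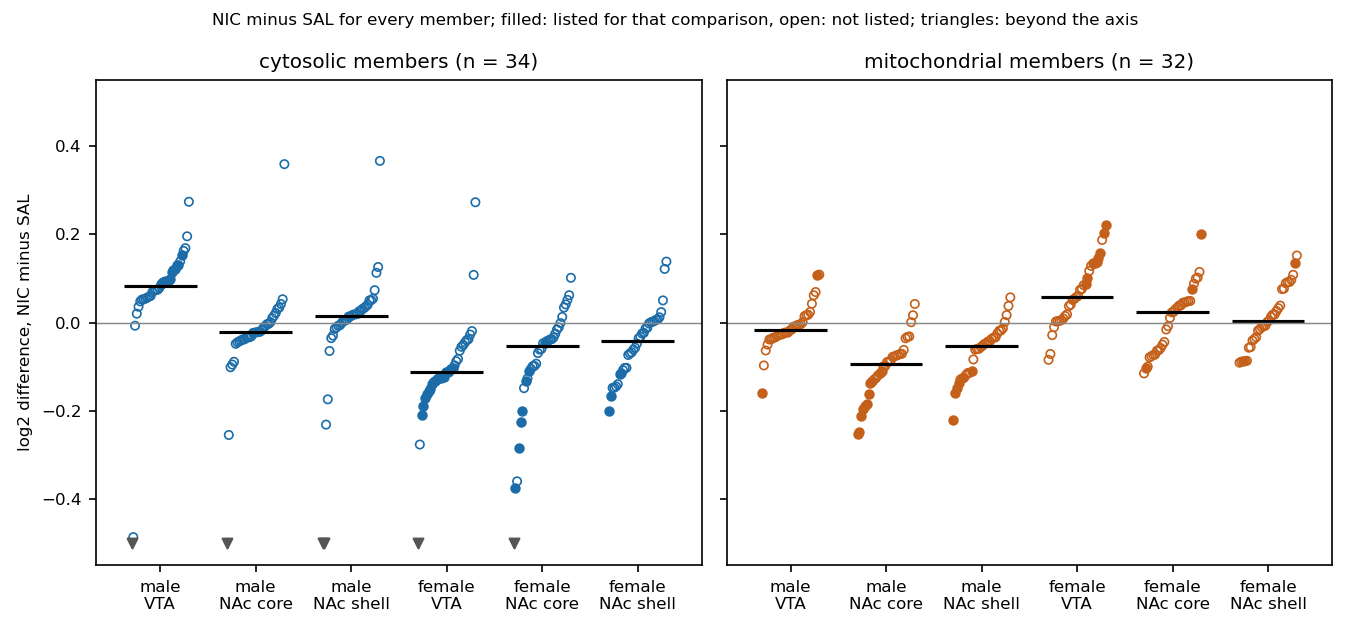
Log2 difference of NIC from SAL for every cytosolic (left) and mitochondrial (right) member in the 6 comparisons of sex and region, filled where the gene is on that comparison's sheet, open where it is not, with the median as a bar and triangles for the 6 values below -0.5. Cytosolic members sit above 0 in male VTA (median 0.08) and below 0 in female VTA (median -0.11), and mitochondrial members below 0 in male NAc core (median -0.09).

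Members at low counts, some of them with a like-named partner, carried the largest fold changes and the least certainty. Rpl10l, the testis-type copy of Rpl10, had 0.473, 0.796 and 0.946 CPM in core SAL and 0.0559, 0.266 and 1.08 in core NIC (-0.95, SE 0.386). In male shell it went from 0.354, 0.607 and 1.11 CPM to 0, 0.266 and 0.671 (-1.15, SE 0.475), where the library at 0 allows up to 0.13 CPM (3 counts of its total). Rpl13 averaged 1.6 CPM and was at 0 in 29 of the 94 libraries, each of which allows up to 0.127 to 0.185 CPM. A second gene named Rpl32, on chromosome 6, averaged 8.82 CPM against 447 for Rpl32 on chromosome 4 and differed by -0.49 (SE 0.423) in male VTA and -0.28 (SE 0.494) in female VTA. Reads of like-named genes may have been divided between them in the estimation, so their values are uncertain. The sequences of these pairs were not compared.

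Genes that act with the ribosome were taken from lists, counted only where the tables name them, so that they share the members' selection. No values within a shared batch are given for them, so NIC and prep batch cannot be told apart there. Of 26 named ribosome assembly genes, 20 were lower and 2 higher in VTA than in NAc core (median -0.39), against 37.8% and 38.1% of all genes. Among the lower ones were Utp25 (-0.91), a small-subunit processome protein, and Polr1a (-0.58), the catalytic subunit of RNA polymerase I. In female VTA 5 were called, all higher, with a median of 0.07, among them Nop56 (0.20, SE 0.050) and Bop1 (0.18), but just 1 of the 20 named by some other table was called, against 10.7% of genes so named. In male VTA, where 5.62% of all genes were called, 1 was higher, Polr1a (0.20), and 1 lower, Utp18 (-0.19), and 0 of the 24 that some other table names were called.

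Among 17 regulators of translation, Eif4ebp1, which codes for the mTORC1-controlled repressor of the cap-binding protein eIF4E, had the signs of the cytosolic members, with 0.32 (SE 0.151) in male VTA and -0.42 (SE 0.145) in female VTA. It was the 1 regulator called in male VTA, a share near the 5.62% of all genes, and the median over the 17 was -0.02 in male and -0.03 in female VTA. In female VTA Rraga, a Rag GTPase that brings mTORC1 to the lysosome, was called in the other direction (0.16), but the sheet of that comparison alone put it on the list. Among the 16 regulators that some other table names, 1 was called in female VTA, lower, against 10.7% of genes so named. Between regions Rps6kb2 (-1.09) and Tsc2 (-0.66) were lower in VTA than in core. Of 5 elongation factors 2 were called in female VTA, Eef1a2 (0.24) and Eef1b2 (0.09), both higher, where 9.24% of all genes were called, and 0 in male VTA. Among the 4 that some other table names 1 was called in female VTA, against 10.7% of genes so named. Of 16 initiation factors 4 were called in male core, all lower, such as Eif3c (-0.15) and Eif5b (-0.26), where 2 of the 14 named by some other table were called, against 12% of genes so named. In female VTA, where 9.24% of all genes were called, 1 was called, Eif4a1 (0.10), and 0 of the 15 that some other table names.

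The respiratory chain genes, which with the products of mitochondrial ribosomes form its complexes, were called lower with NIC in male core for 17 of 27 named (median -0.12), a count that this comparison's sheet helped to set. Among the 18 that some other table names, 10 were called, all lower, against 12% of genes so named (4.28% lower). Among the 17 were Ndufa5 of complex I (-0.13) and Uqcrc1 of complex III (-0.18). In male shell 4 were called, all lower (3 of the 23 named elsewhere, against 2.35% of genes so named). In male VTA 0 of 27 were called, against 5.62% of all genes, and in female VTA 1 of 27, lower, against 9.24%. Of 8 genes of mitochondrial translation and DNA, 0 were called in VTA of either sex, 4 were lower and 0 higher in VTA than in core, where 37.8% and 38.1% of all genes were, such as Mtif2 (-0.59) and Polrmt (-0.39), and Polrmt (-0.25) and Polg (-0.12) were called lower with NIC in female shell, where 10.1% of all genes were called, 4.88% lower.

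Between the sexes, with treatment as a term, 0 cytosolic members differed in VTA at an adjusted p under 0.05 by edgeR and 1 by DESeq2, against 2.33% of all genes. In core, where 32.9% of all genes differed, 3 were lower in males in core (Rpl31 at -0.18, Rps25 at -0.13 and Rps27 at -0.12), and 0 with all mapped libraries. In shell, where 21% did, 4 were higher in males (Rps19 at 0.20, Rplp0 at 0.16, Rps18l1 at 0.16 and Rps7 at 0.15). Mitochondrial members differed 0, 6 and 6 times, with Mrpl37 higher in males by 0.23 in core and 0.24 in shell. Only batch L holds libraries of both sexes, so sex cannot be told apart from prep batch. In core 7 of 7 striatal projection neuron markers were also lower in males (median -0.72).

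Within groups the cytosolic members rose and fell together from library to library. Over the 94 libraries, with log2 CPM centered in the 12 groups, the median Pearson correlation of cytosolic pairs was 0.68, that of mitochondrial pairs 0.29 and that of a cytosolic with a mitochondrial member 0.12, against 0.01 for a cytosolic member with any other gene. In shell alone the cytosolic median was 0.82, in core 0.58 and in VTA 0.53, where mitochondrial pairs had 0.41. The libraries share depth, prep batch and dissection, so these values are descriptions. Members that move together are not independent of each other in the counts above.

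Rps16 and Rpl27a followed their set most closely, with median correlations of 0.82 each to the other cytosolic members. Rps6 had 0.40, Rps27l 0.24, the chromosome 6 Rpl32 0.07, Rpl13 -0.04, Rpl10l -0.10 and Rpl7l1 -0.53. Rpl7l1 was thus high where the other cytosolic members were low. Some mitochondrial members went with the cytosolic set, led by Mrpl52 (0.67), Mrpl27 (0.60), Mrps24 (0.49) and Mrpl48 (0.47), while Mrpl51 (-0.40) and Mrpl47 (-0.17) went against it.

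**Figure D5:**
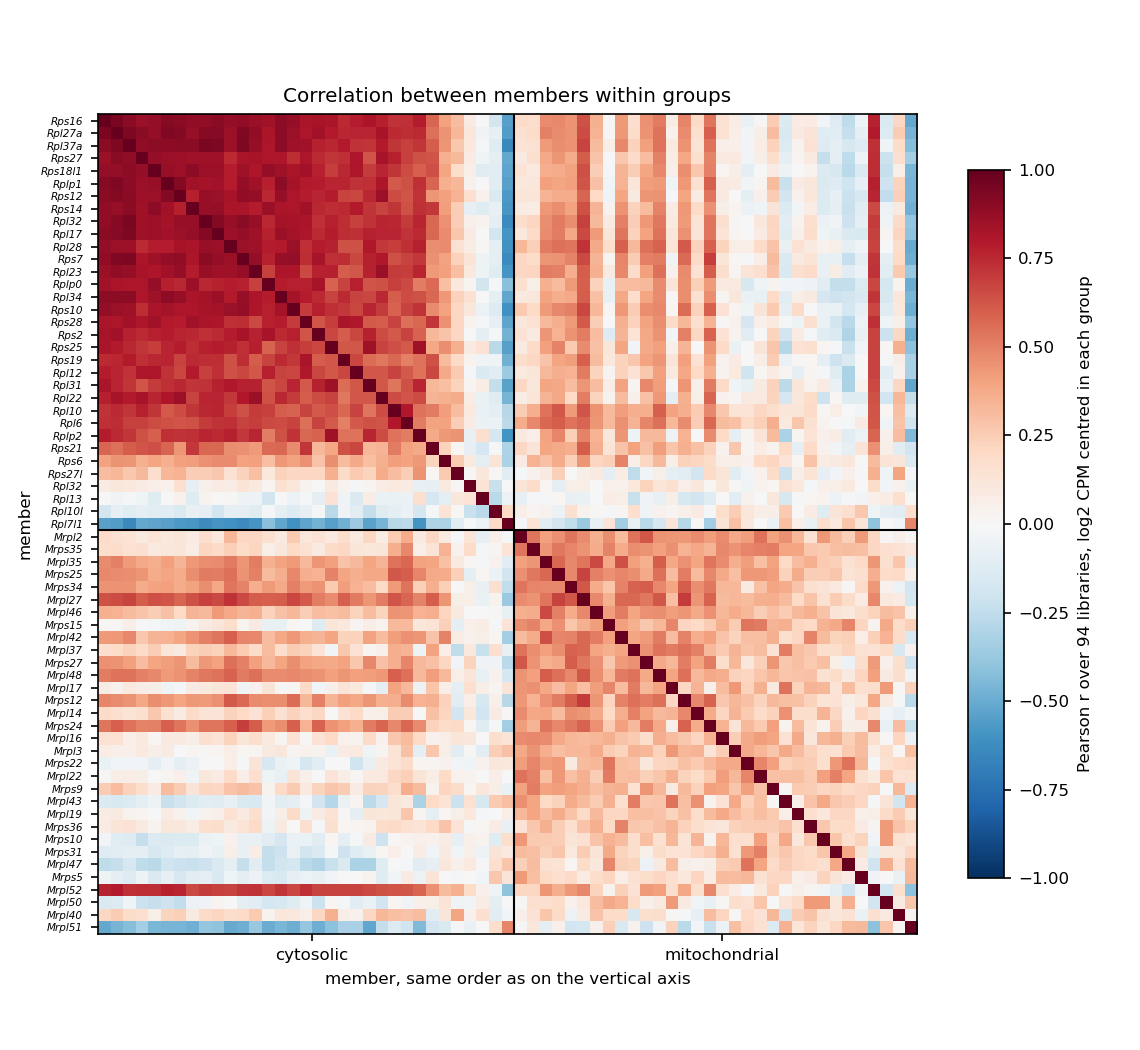
Pearson correlation over 94 libraries between pairs of members, 1 cytosolic member not shown, on log2 CPM centered within the 12 groups, with cytosolic members first and mitochondrial members after them on both axes. Over all members the cytosolic block has a median of 0.68 with a few rows near or below 0, the mitochondrial block has a median of 0.29, and the rectangle between the sets has a median of 0.12.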

How the data were processed

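RNA of 3 brain regions was sequenced from rats of both sexes. Per the labels and the study's methods, the authors trimmed reads with fastp 0.20.0, quantified transcripts with Salmon 0.12.0 against Rnor 6, and collapsed them with tximport. The values the authors deposited are whole-number counts for each gene, estimated by Salmon and not normalized. Symbols came from the study's gene tables (names only), and 0 columns lacked a labelled sample. The 94 of 96 libraries shown in the study's clustering were used, which leaves out male VTA SAL 5 run R1 and female NAc core NIC 1.

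Genes with a count over 10 after size factors in at least 3 libraries were tested, 16879 in all, with edgeR 4.0.16 (quasi-likelihood test, TMM, R 4.3.3) within each sex and region, across regions in SAL rats, and for sex by treatment, with Benjamini-Hochberg adjustment over all tested genes. CPM used TMM factors, log2 CPM a prior count of 2, and single genes off a comparison's sheet an exact two-sided permutation test of log2 CPM. DESeq2 1.42.0, other filters, fits and library sets were alternatives. The edgeR comparison of NIC with SAL was tested on counts simulated from the male VTA libraries, and the permutation test on made-up values. The other steps were not tested in this way. The labels do not say which rats share a litter, so p-values measure the spread between these rats.

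Regional libraries with 1 number come from the same rat. Their deviations from the group means had median correlations of 0.03 (VTA and core, 15 rats), 0.02 (VTA and shell, 15 rats) and 0.08 (core and shell, 16 rats).

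The members, lists and alternatives were chosen with earlier results of these data known, and the pyrimidine run was described after the sequences were seen. Named members had, within their set, any of the 3 smallest p of a NIC comparison or interaction, a call in 2 or more NIC comparisons, any of the 3 largest regional differences per direction, any of the 3 highest or lowest mean levels, or a like-named partner, and each pathway list gave its 2 smallest p. Others were named with their set after their values were seen. Windows were RefSeq sequences of GRCr8, matched by symbol and chromosome, and proteins were not used here. The values of 1 cytosolic member are not reported here; it stayed in the fits and counts. Intervals and floors cover counting error only.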

Additional observations from a re-analysis of the deposited data

Results flagged for a closer look

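Among 82 groups of libraries examined, 9 had a library far from the others, where chance gives about 1 in 20. The cytosolic share was low in male NAc core SAL 4 (0.860% of counts, 95% exact binomial interval 0.856% to 0.864%, others at least 1.05%) and high in male VTA NIC 13 (1.02%, interval 1.01% to 1.02%, others at most 0.937%) and in male VTA SAL 4 (0.959%, interval 0.956% to 0.963%, others at most 0.873%). The mitochondrial share was high in female VTA NIC 4 (0.142%, interval 0.140% to 0.143%, others at most 0.132%) and in male VTA SAL 7 (0.138%, interval 0.136% to 0.139%, others at most 0.129%). Among single genes, Rps21 was low in female NAc core NIC 8 (17.2 CPM, others at least 34.5), and Rps25 in female VTA SAL 14 (169 CPM, others at most 155), Rpl10l in male NAc core NIC 13 (1.08 CPM, others at most 0.465) and Mrpl14 in male NAc core NIC 11 (22.9 CPM, others at most 19.7) were high.

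The NIC difference of female rats minus that of male rats was called at an unadjusted p under 0.05, with no adjusted p under 0.05, for 38 pairs of a member and a region. The 17 given one by one are members that a table other than the sheets of that region also names, so Rplp1 (-0.26 in VTA), for example, is not among them. Apart from Rpl6 and Rps27l, each is on a sheet of the sexes compared, which helped to choose it. In VTA the log2 values were -0.28 for Rps14, -0.35 for Rplp2, -0.26 for Rpl31, -0.23 for Rpl12, -0.22 for Rps28, -0.40 for Rps21 (0.081 with prep batch as a covariate), -0.14 for Rpl6 and -0.26 for Rps27l. The mitochondrial members had 0.25 for Mrpl51, -0.17 for Mrpl52 and 0.36 for Mrpl47. In NAc core the values were -0.33 for Rps28 and -0.17 for Rps14. In NAc shell they were -0.29 for Rplp2, 0.19 for Mrps5, 0.20 for Mrpl40 and 0.24 for Mrpl2.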

How the results depend on the processing

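Prep batch as a covariate moved the NIC results most. Called cytosolic members named elsewhere became 0 of 27 for male VTA, 2 of 26 for female VTA, 0 of 34 for female core and 1 of 34 for female shell. They became 3 of 34 for male core and 2 of 34 for male shell. For the interactions in VTA, core and shell they became 0 of 18, 4 of 34 (all higher) and 0 of 34. For mitochondrial members they became 4 of 32 for male VTA, 0 of 28 for female VTA, 3 of 31 for female core and 2 of 32 for female shell. They became 4 of 23 for male core, and 6 of 28, 1 of 22 and 1 of 30 for the interactions. Of all genes named elsewhere, that fit called 5.33% in male VTA, 1.68% in female VTA, 4.52% in female core and 4.05% in female shell. It called 13.1% in male core, 14.2% in male shell, and 2.94%, 7.69% and 7.11% by the interactions. Medians became 0.083 (cytosolic, female core), 0.17 and 0.19 (cytosolic interaction, core and shell), -0.14 (mitochondrial, male VTA), -0.062 (female core), -0.14 (female shell), -0.16 (male shell), and 0.227 and 0.0017 (mitochondrial interaction, VTA and shell). The interactions of Rps14 in core (0.022), Rplp2 in shell (0.285) and Rps21 in VTA (0.081) reversed. The cause was not tested.

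With 12 groups in one fit, cytosolic calls were 2 in male VTA, 3 in female VTA and 2 in male shell, and mitochondrial calls 5 in male shell and 1 in female core. All mapped libraries gave 1 mitochondrial call each in male VTA, female core and the core interaction, and 0 cytosolic members between the sexes in core. A count of 10 in every library, which drops Rpl10l, left 0 cytosolic calls in male core and shell. DESeq2's test and its size factors each gave 2 mitochondrial members between core and shell, and its test 1 cytosolic member between the sexes in VTA. Without the libraries that stand apart, 2 cytosolic members differed between core and shell, and the interactions had 1 cytosolic and 1 mitochondrial call in core and 2 cytosolic calls in shell. Leaving out the 3 libraries high in choroid plexus markers, chosen after seeing the data, gave 1 mitochondrial call in male shell and left the other 35 counts and medians within 1.5 times or the spread between rats.

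Leaving out each library in turn gave 1 to 9 cytosolic calls in male VTA, 6 to 12 in female VTA, 1 to 5 in male core, 0 to 1 in male shell, 5 to 7 in female core and 2 to 8 in female shell, and 0 to 2, 4 to 6, 1 to 7, 1 to 5, 0 to 2 and 1 to 3 mitochondrial calls. The cytosolic medians stayed between 0.05 and 0.11 in male VTA and between -0.13 and -0.10 in female VTA. The animal as a replicate block in the regional comparisons changed none of their 12 counts and medians and ended 4 of 106 calls of single members. Rank correlation moved none of 5 values, and no count filter none of 48. Symbols from the reference table were not run, since it pairs no identifiers of these files. Changes of members under 1 CPM rest on few counts.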
